A study of Mus musculus with 83 samples.

Results

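Transcripts of 10 genes of the insulin-like growth factor (IGF) system were followed through life in the mouse colon. The genes were the ligand Igf1, its receptor Igf1r, the binding proteins Igfbp2 to Igfbp7 and the docking proteins Irs1 and Irs2. They were chosen by name for their place in the pathway, with earlier results of these data known. They are 10 of the 37764 genes counted in the table. RNA-seq counts came from the colon of 83 male C57BL/6J/Ukj mice, in 5 age groups. The ages of 3, 9 and 15 months were represented by 16 mice each, that of 24 months by 17 and that of 28 months by 18. Each library came from 1 mouse, no mouse received a treatment, and age is the only difference between the groups that the labels give. RNA was taken from whole tissue of the proximal colon, so a level sums over all cell types of the gut wall, and fewer cells of a type cannot be told apart from less RNA per cell.

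IGF1 is a peptide growth factor that the liver secretes under the control of growth hormone and that connective tissue cells also make locally, in the gut wall among other places. It binds a receptor tyrosine kinase on the cell surface, which phosphorylates the insulin receptor substrates IRS1 and IRS2, and these recruit the PI3K and Akt kinases. The IGF binding proteins hold the ligand outside the cell, carry it in blood and matrix, and release it when proteases such as PAPP-A cut them. In the colon the pathway is known for supporting growth of the epithelium, of the muscle layers and of tumours.

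The 10 genes lie on 7 chromosomes of GRCm38, and the binding protein genes lie in part as neighbours. Igfbp2 (chromosome 1, 72824503 to 72852474, plus strand) and Igfbp5 (chromosome 1, 72857932 to 72874884, minus strand) face each other tail to tail with 5457 bases between them and no protein-coding gene in that gap. Igfbp3 (chromosome 11, 7206086 to 7213923, minus strand) lies 3539 bases from Igfbp1, a gene that did not pass the filter on low counts in this tissue. Igfbp4 (chromosome 11, 99041244 to 99054392, plus strand), Igfbp6 (chromosome 15, 102144362 to 102149511, plus strand) and Igfbp7 (chromosome 5, 77349240 to 77408041, minus strand) stand apart from the other binding protein genes. Irs2 lies on chromosome 8 (10984681 to 11008458, minus strand), Irs1 on chromosome 1 (82233101 to 82291416, minus strand), Igf1 on chromosome 10 (87858265 to 87937042, plus strand) and Igf1r on chromosome 7 (67952827 to 68233668, plus strand).

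Promoters are shown for Igfbp4 and Igfbp7, the pair whose levels moved most closely together from mouse to mouse, and for Igfbp5 and Irs2, the members with the largest differences between 3 and 28 months. Each is the RefSeq sequence of build GRCm38.p6 from 250 bases before to 50 bases after the RefSeq start of the gene, written 5′ to 3′ on the strand of the gene. Capitals mark the matches to 4 motifs searched on both strands, the TATA box TATAAA, the GC box GGGCGG, the E-box CACGTG and the FoxO motif TGTTTAC. The gene positions above are those of GENCODE vM21, whose starts are not always the RefSeq ones. That of Igfbp4 is the same, whereas the Irs2 window lies wholly upstream of the gene as placed there. The positions are chr11:99040994-99041293 (plus strand) for Igfbp4, chr5:77407996-77408295 (minus strand) for Igfbp7, chr1:72874816-72875115 (minus strand) for Igfbp5 and chr8:11008880-11009179 (minus strand) for Irs2.
Igfbp4: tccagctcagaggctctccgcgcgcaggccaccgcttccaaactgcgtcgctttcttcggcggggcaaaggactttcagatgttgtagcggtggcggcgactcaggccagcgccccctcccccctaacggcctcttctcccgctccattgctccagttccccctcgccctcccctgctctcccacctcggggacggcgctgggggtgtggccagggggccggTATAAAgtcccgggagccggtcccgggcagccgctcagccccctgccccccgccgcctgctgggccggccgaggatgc
Igfbp7: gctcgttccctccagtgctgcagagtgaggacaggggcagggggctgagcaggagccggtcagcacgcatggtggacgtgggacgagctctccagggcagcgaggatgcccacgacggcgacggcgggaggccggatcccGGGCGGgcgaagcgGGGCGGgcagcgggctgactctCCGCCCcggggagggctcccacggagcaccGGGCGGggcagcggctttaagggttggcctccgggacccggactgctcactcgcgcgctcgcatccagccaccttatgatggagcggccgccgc
Igfbp5: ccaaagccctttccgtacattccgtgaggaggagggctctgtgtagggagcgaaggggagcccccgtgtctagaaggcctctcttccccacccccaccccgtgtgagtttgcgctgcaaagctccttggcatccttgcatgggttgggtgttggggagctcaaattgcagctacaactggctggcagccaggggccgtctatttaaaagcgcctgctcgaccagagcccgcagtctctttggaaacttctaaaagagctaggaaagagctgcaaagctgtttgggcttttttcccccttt
Irs2: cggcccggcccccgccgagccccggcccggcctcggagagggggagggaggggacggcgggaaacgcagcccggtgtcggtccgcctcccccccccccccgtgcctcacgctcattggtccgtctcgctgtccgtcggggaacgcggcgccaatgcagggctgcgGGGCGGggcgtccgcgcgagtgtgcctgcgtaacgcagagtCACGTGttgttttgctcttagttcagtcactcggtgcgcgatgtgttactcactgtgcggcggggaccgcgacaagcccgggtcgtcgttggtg

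The window of Igfbp4 holds 1 TATA box, a motif found in 13.6% of 32851 RefSeq promoter windows of the same length. The window of Igfbp7 holds 4 GC boxes, a motif found in 35.7% of the windows. Irs2 has 1 GC box and 1 E-box, and the E-box, also present in the windows of Igfbp2 and Irs1, occurs in 7.15% of all windows. The Igfbp5 window holds none of these letters, and the FoxO motif, present in 3.65% of all windows, is in none of the windows of the 10 genes. The windows differ widely in CG content. Igf1 has 6 CG dinucleotides and Igfbp5 has 10, beside a median of 7 over all windows, whereas Irs2 has 41 and Igf1r has 48, more than 96.5% and 98.8% of the windows. These matches describe letters only, and no binding of a factor was measured.

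Gene counts summed to 23026370 to 75838290 read pairs in a mouse (median 35495123). The libraries were prepared in 3 batches that each held 4 to 7 mice of every age. Markers of the labelled tissue were high. Muc2, the mucin of goblet cells, was counted at a median of 18520 CPM (a count scaled by the library's normalized size) and Car1, a carbonic anhydrase of colonocytes, at 6548 CPM. Of the 83 mice, 7 stood apart by a low smooth muscle score, which is the mean log2 CPM of 6 muscle genes. These were the mice numbered 7, 10, 12 and 16 at 3 months and 4, 6 and 13 at 9 months, with scores from 6.5 to 7.96 beside a median of 9.03 over all mice and at least 8.24 in each of the other 76. Results that rest on these mice are given with and without them below, a choice made after seeing the data. No pair of mice of the same age agreed within sampling noise.

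All 10 genes passed the filter on low counts. Levels of different genes were compared as TPM, which corrects for transcript length. Igfbp7, a secreted protein of vessel walls and matrix with low affinity for IGFs, was the most abundant, with a median of 193 TPM over the 83 mice, higher than 96.8% of the genes detected. Igfbp4 (59.7 TPM), Igfbp5 (56.5 TPM) and Igfbp3 (55.1 TPM) followed. Their order was not stable, since Igfbp4 exceeded Igfbp5 in 43 of 83 mice and Igfbp5 exceeded Igfbp3 in 46 of 83. Igfbp2 (23.9 TPM), Irs2 (22.6 TPM) and Igfbp6 (21.0 TPM) formed a lower group whose neighbours were likewise not separated, in 47 and 49 of 83 mice. The receptor Igf1r (6.73 TPM), the ligand Igf1 (4.26 TPM) and Irs1 (1.80 TPM) were the least abundant, and Igf1r exceeded Igf1 in 77 of 83 mice and Igf1 exceeded Irs1 in all 83.

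At the ages of 3, 9 and 15 months, the level summed over the 6 binding proteins was 370.1 ± 56.0, 385 ± 45.4 and 385 ± 36.2 TPM (SD, n = 16 each). It was 480.1 ± 51.3 TPM in the 17 mice aged 24 months and 488 ± 83.3 in the 18 mice aged 28 months. The sum was thus of similar size in the 3 younger groups and higher in the 2 older ones, although the ranges overlapped, from 258 to 466 TPM at 3 months and from 338 to 615 at 28 months. Igfbp7 made up a median of 48.4% of the sum at 3 months and 46.1% at 28 months. The share of Igfbp5 went from 13.3% to 16.5%, and that of Igfbp3 from 15.8% to 12.5%. Beside the ligand, the median ratio of the summed binding proteins to Igf1 in TPM was 101, 84.9, 87.0, 99.9 and 112 in order of age. These sums and ratios are descriptions without a test. They include Igfbp7, a protein of low affinity for IGFs, and so do not measure the capacity to bind the ligand.

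**Figure D1:**
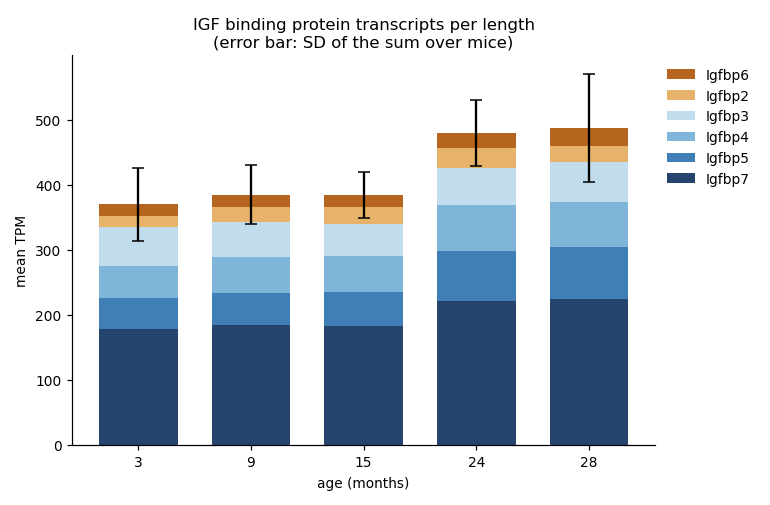
Stacked bars give the mean TPM of each of the 6 binding proteins at each age in months, and the error bar is the SD of their sum over 16 to 18 mice. The bars of the 3 younger ages reach 370.1 to 385 TPM and those of 24 and 28 months 480.1 and 488, with Igfbp7 as the largest layer at every age.

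Age differences were tested with edgeR's quasi-likelihood test on all 18325 genes that passed the filter, with library batch in the model, and a gene was called at a Benjamini-Hochberg adjusted p below 0.1. Between 3 and 28 months, 7 of the 10 genes were called and all 7 were higher at 28 months. These were Igf1, Igfbp2, Igfbp4, Igfbp5, Igfbp6, Igfbp7 and Irs2. Over all genes tested, 49.4% were called in this comparison, 23.5% as higher and 25.9% as lower. The median log2 fold change was 0.37 over the 10 genes and -0.01 over all genes. Igf1r, Igfbp3 and Irs1 did not pass, with log2 fold changes of 0.10, 0.02 and 0.02.

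Between 15 and 24 months, 5 genes were higher at 24 months, namely Igf1r, Igfbp4, Igfbp5, Igfbp7 and Irs2, and none was lower (13.5% of all genes called, 6.28% as higher and 7.24% as lower). The median log2 fold change was 0.25 over the 10 genes and 0.00 over all genes. Between 3 and 9 months, 3 genes were called as higher at 9 months, Igf1, Igfbp2 and Irs2 (8.69% of all genes called, 3.64% as higher and 5.05% as lower). Between 9 and 15 months no member was called by edgeR or by DESeq2, and 0 had an unadjusted p below 0.05 (0.431% of all genes called, 0.251% as higher and 0.18% as lower). Between 24 and 28 months no member was called by either tool (11.7% of all genes called, 5.66% as higher and 6.01% as lower), and 1 had an unadjusted p below 0.05.

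The other pairs of ages share mice with these comparisons. At 15 against 3 months 4 genes were called (7.75% of all genes, 4.25% as higher and 3.5% as lower), Igf1 and Igfbp2 as higher and Igf1r and Igfbp3 as lower. At 24 against 3 months the 7 genes called at 28 against 3 months were called, again all as higher (34.5% of all genes, 16.7% as higher and 17.8% as lower). Calls were followed over 12 fits, the reported one and others with another tool, filter, covariate or choice of mice. In this comparison Igfbp6 was called in 8, with log2 fold changes down to 0.06, and Igf1 in 10, down to 0.19. The call of Igfbp6 was lost with each set of cell type scores and without the 7 mice with low smooth muscle scores. At 24 against 9 months 3 were higher (15.5% of all genes called, 8.93% as higher and 6.55% as lower). At 28 against 9 months 6 were higher, Igf1r, Igfbp4, Igfbp5, Igfbp6, Igfbp7 and Irs2 (40% of all genes called, 20% as higher and 20% as lower). At 28 against 15 months 7 were higher, the same and Igfbp3 (42.4% of all genes called, 20.2% as higher and 22.2% as lower). Against 9 months Igfbp4, Igfbp6 and Igfbp7 were called in 9, 10 and 10 of the 12 fits, with log2 fold changes down to 0.10, 0.03 and 0.08. Against 15 months they were called in 9, 9 and 10, down to 0.07, 0.004 and 0.09. Apart from 15 against 3 months, each member called in the reported fit was higher in the older mice. With cell type scores as covariates Igf1 was called as lower at 28 months, against 9 months at -0.25, -0.23 and -0.23 and against 15 months at -0.31, -0.29 and -0.24 (smooth muscle and fibroblast, mesothelium, and macrophage and endothelium scores). At 24 against 3 months Irs1 was called as lower with the first of these score sets (-0.17) and Igfbp3 with the last (-0.19), and at 28 against 3 months Irs1 with the second (-0.16). With the 7 mice of low smooth muscle score left out, no member was called at 9 against 3 months (2.28% of all genes called in that fit) and 1, Igf1r, at 15 against 3 months (8.27%). At 24 against 3 months 6 were called (20.9%), which were those reported except Igfbp6. At 28 against 3 months 5 were called, namely Igfbp4, Igfbp5, Igfbp6, Igfbp7 and Irs2 (42.8% of all genes called).

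**Figure D2:**
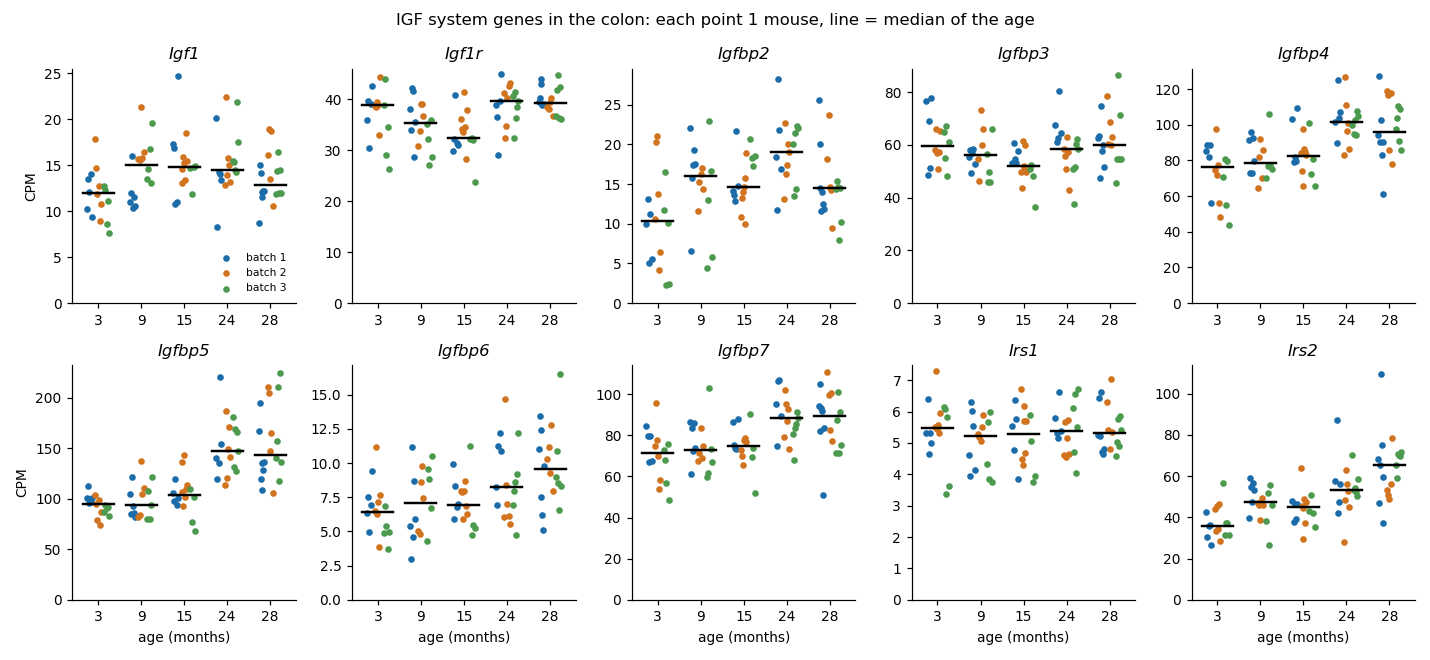
Each panel gives the level of 1 gene in CPM (y axis, from 0) by age in months (x axis), each point being 1 of 83 mice coloured by library batch and each line the median of 16 to 18 mice. Igfbp5 sits between 74.1 and 112 CPM at 3 months and between 113 and 220 at 24 months, while the 3-month and 28-month points of Irs1 and Igfbp3 lie over one another.

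The ligand Igf1 was lowest in the youngest mice. At 3 months it was counted at 7.62 to 17.9 CPM (median 12), at 9 months at 10.4 to 21.3 (median 15.1) and at 15 months at 10.8 to 24.7 (median 14.8). Values lay between 8.25 and 22.5 CPM at 24 months (median 14.5), with 8.77 to 18.9 (median 12.9) at 28 months. The groups overlapped throughout, and 14 of the 18 mice aged 28 months exceeded the median at 3 months. The log2 fold change was 0.31 ± 0.10 (SE) at 9 against 3 months (adjusted p = 0.062), 0.39 ± 0.10 at 24 against 3 months (adjusted p = 0.00298) and 0.22 ± 0.10 at 28 against 3 months (adjusted p = 0.0694). The first of these was 0.006, 0.43 and 0.57 in the 3 batches, and it was 0.21 and not called without the 7 mice with low smooth muscle scores. From 24 to 28 months it was -0.17 ± 0.10 (adjusted p = 0.322). At 28 against 3 months the difference was not called without 3-month mouse 12 or 16 or without 28-month mouse 6, 8 or 14, with log2 fold changes of 0.19 to 0.20. It was 0.14 without the 7 mice, also not called. Within the 3 batches it was 0.05, 0.28 and 0.38. Over the 12 fits it ranged from 0.04 to 0.26 and was called in 7.

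The receptor Igf1r, which binds IGF1 with high affinity and signals through Irs1 and Irs2, followed a shallow dip. Its range was 26.3 to 44.3 CPM at 3 months (median 38.8), 27.0 to 42.3 at 9 months (median 35.4) and 23.8 to 41.4 at 15 months (median 32.3). It was 29.2 to 45 CPM at 24 months (median 39.7) and 36.1 to 44.7 at 28 months (median 39.3). The median at 15 months was exceeded by 16 of the 17 mice aged 24 months and by all 18 aged 28 months. Igf1r was lower at 15 than at 3 months, with a log2 fold change of -0.17 ± 0.06 (SE, adjusted p = 0.0874), and higher at 24 than at 15 months, by 0.22 ± 0.06 (adjusted p = 0.0116). The second difference was 0.19, 0.15 and 0.35 in the 3 library batches. When the 7 mice with low smooth muscle scores were left out, the first difference was -0.25 and the second 0.22, both called. The first was called in 8 of 12 fits and lost in 4, with adjusted p up to 0.152 (without the filter, without the batch term, with the replicate block and with only the 2 ages fitted). At 28 against 3 months the log2 fold change of 0.10 ± 0.06 did not pass (adjusted p = 0.142), but it did without 3-month mouse 8, 13 or 15 or without 28-month mouse 5, at 0.12 to 0.14. It was also called in 3 of the 12 fits, DESeq2 among them, so that DESeq2 called 8 of the 10 genes (49.7% of all genes).

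Among the binding proteins, Igfbp5 had the largest difference between 3 and 28 months. IGFBP5 binds IGFs tightly, attaches to extracellular matrix and is cut by PAPP-A and PAPP-A2. It was counted at 74.1 to 112 CPM at 3 months (median 94.6), 80.3 to 138 at 9 months (median 93.4) and 68.1 to 144 at 15 months (median 104). It rose to 113 to 220.0 CPM at 24 months (median 147), with 105 to 224 at 28 months (median 144). All 17 mice aged 24 months lay above the highest mouse aged 3 months, as did 16 of the 18 mice aged 28 months. The share of all genes with such a separation was not computed, while 34.5% and 49.4% of all genes were called in these comparisons.

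The log2 fold change of Igfbp5 was 0.54 ± 0.09 (SE) from 15 to 24 months (adjusted p = 3.83e-05) and 0.75 ± 0.09 from 3 to 28 months (adjusted p = 1.58e-10), a difference of 67.3% between the mean levels. It was 0.55, 0.35 and 0.80 in the 3 batches for the first and 0.46, 0.86 and 0.84 for the second. From 3 to 9, 9 to 15 and 24 to 28 months the log2 fold changes were 0.08, 0.08 and 0.05, and none passed. Over the same 12 fits, Igfbp5 was called at 28 against 3 months in all 12, with log2 fold changes from 0.51 to 0.76, and at 24 against 15 months in all 12, from 0.31 to 0.56.

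Igfbp4, an inhibitory carrier that PAPP-A cuts in the presence of IGFs, rose less. Its level was 43.8 to 97.4 CPM at 3 months (median 76), 64.7 to 106 at 9 months (median 78.5) and 65.5 to 109 at 15 months (median 82.7). At 24 months it was 83.2 to 127 CPM (median 102) and at 28 months 61.3 to 127 (median 95.9). The 3-month median was exceeded by all 17 mice aged 24 months and 17 of the 18 aged 28 months, though the ranges overlapped. The log2 fold change was 0.44 ± 0.08 (SE) from 3 to 28 months (adjusted p = 7.77e-06) and 0.28 ± 0.08 from 15 to 24 months (adjusted p = 0.0229). From 3 to 28 months it was 0.37 without the 7 mice with low smooth muscle scores, and called. It was 0.20, 0.56 and 0.62 in the 3 batches.

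Igfbp7, the most abundant member per length, had a similar course with a smaller change. It was counted at 48.5 to 95.5 CPM at 3 months (median 71.3), 59.7 to 103 at 9 months (median 72.7) and 52.2 to 90.5 at 15 months (median 74.7). At 24 months the range was 68.2 to 107 CPM (median 88.6) and at 28 months 51.2 to 111 (median 89.5). The groups overlapped, and 15 of the 17 mice aged 24 months exceeded the median at 15 months. The log2 fold change was 0.31 ± 0.07 (SE) from 3 to 28 months (adjusted p = 0.000388) and 0.24 ± 0.07 from 15 to 24 months (adjusted p = 0.0296), the latter at 0.245, 0.245 and 0.234 in the 3 batches. From 3 to 28 months it was 0.23 without the 7 mice and called. From 15 to 24 months Igfbp4 and Igfbp7 were not called with smooth muscle and fibroblast scores as covariates, at 0.13 and 0.11, nor with macrophage and endothelium scores, at 0.11 and 0.08.

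Igfbp6, which prefers IGF2 as its ligand, was called from 3 to 28 months but not between neighbouring ages. It lay at 3.73 to 11.2 CPM at 3 months (median 6.42), 2.97 to 11.2 at 9 months (median 7.08) and 4.71 to 11.2 at 15 months (median 6.92). At 24 months it was 4.77 to 14.7 CPM (median 8.23) and at 28 months 5.12 to 16.5 (median 9.56). Only 4 of the 18 mice aged 28 months exceeded the highest mouse aged 3 months, while 16 lay above the 3-month median. Its log2 fold change from 3 to 28 months was 0.61 ± 0.15 (SE, adjusted p = 0.000624), with 0.36, 0.59 and 0.91 in the 3 batches and 0.50 without the 7 mice. Markers of mesothelium, the cell sheet that covers the outer surface of the gut, moved with it. All 4 of these markers (Msln, Upk3b, Lrrn4 and Wt1) were higher at 28 than at 3 months (49.4% of all genes called, 23.5% as higher). Their median log2 fold change was 1.28, and none was at 0 in all mice. Their score ranged from -1.53 to 0.44 at 3 months and from -0.60 to 1.67 at 28 months. With this score as a covariate, added after the values were seen, the difference of Igfbp6 was 0.08 and did not pass (adjusted p = 0.574, and from 0.000136 to 0.574 over 12 fits). The part of the mesothelium in the result was not tested.

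Igfbp2, a carrier that also binds integrins, varied more between mice than any other member, with a coefficient of variation of 35.9% over all mice. Its level was 2.26 to 21.1 CPM at 3 months (median 10.3), 4.38 to 22.9 at 9 months (median 16.0) and 9.98 to 21.8 at 15 months (median 14.7). At 24 months it was 11.7 to 28.3 CPM (median 19.1) and at 28 months 7.98 to 25.6 (median 14.5). The log2 fold change was 0.53 ± 0.20 (SE) from 3 to 9 months (adjusted p = 0.0999), 0.89 ± 0.19 from 3 to 24 months (adjusted p = 0.000332) and 0.54 ± 0.19 from 3 to 28 months (adjusted p = 0.0168). At 24 against 3 months 4 of the 6 smooth muscle markers were higher too, with a median log2 fold change of 0.47 (34.5% of all genes called, 16.7% as higher). Their score ranged from 6.5 to 9.35 at 3 months and from 8.665 to 9.44 at 24 months. The difference of Igfbp2 from 3 to 24 months was 0.45 with smooth muscle and fibroblast scores as covariates, and called. The 9 lowest values at 3 and 9 months included all 7 mice with low smooth muscle scores, the others being 3-month mice 13 and 15 (6.42 and 5.59 CPM). Without those 7 mice the log2 fold change was 0.44 from 3 to 9 months and 0.26 from 3 to 28 months, neither called, and 0.59 from 3 to 24 months, which was called. From 24 to 28 months it was -0.33 without them and passed, beside -0.34 with them, which did not. Within the 3 batches the difference from 3 to 28 months was 0.85, 0.49 and 0.96. Over the 12 fits it was called in 9, with log2 fold changes from 0.26 to 0.63, and with the mesothelium score as a covariate it was 0.34 and did not pass. The part of smooth muscle in the result was not tested.

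Igfbp3, the main carrier of IGFs in serum, was not called between the youngest and oldest mice. It was counted at 48.2 to 77.6 CPM at 3 months (median 59.6), 36.4 to 61.4 at 15 months (median 52.1) and 45.5 to 86.4 at 28 months (median 60.1). The 15-month mice were the lowest group. For Igfbp3 the log2 fold change was -0.23 ± 0.08 (SE) from 3 to 15 months (adjusted p = 0.0533), 0.25 ± 0.07 from 15 to 28 months (adjusted p = 0.00446) and 0.02 ± 0.07 from 3 to 28 months (adjusted p = 0.809). Without the 7 mice with low smooth muscle scores the first was -0.20 and no longer called, and the second was 0.27 and called. In the 3 batches the first was -0.18, -0.17 and -0.34 and the second 0.08, 0.33 and 0.36.

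The docking proteins parted. Irs1, which links the receptor to PI3K, lay at 3.36 to 7.28 CPM at 3 months (median 5.48) and 4.58 to 7.05 at 28 months (median 5.31), and it was not called in any comparison of ages in the reported fit. With cell type scores as covariates it was called as lower in the 2 comparisons given above. Its adjusted p for any difference among the 5 ages was 0.597. Irs2, a related docking protein with an overlapping role, was 26.8 to 56.8 CPM at 3 months (median 36), 26.4 to 59.0 at 9 months (median 47.2) and 29.7 to 64.1 at 15 months (median 44.9). It was 28.0 to 87.1 CPM at 24 months (median 53.3) and 37.0 to 110 at 28 months (median 65.4). All 18 mice aged 28 months exceeded the median at 3 months, and 12 exceeded the highest mouse aged 3 months. How many of all genes were separated to this degree was not computed, while 49.4% of all genes were called in this comparison. The median ratio of Irs2 to Irs1 in TPM was 10.5 at 3 months and 17.8 at 28 months.

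For Irs2 the log2 fold change was 0.33 ± 0.11 (SE) from 3 to 9 months (adjusted p = 0.0554), 0.29 ± 0.10 from 15 to 24 months (adjusted p = 0.0724) and 0.77 ± 0.10 from 3 to 28 months (adjusted p = 5.4e-09), a difference of 71.9% between the mean levels. The last was 0.88, 0.57 and 0.84 in the 3 batches, 0.78 without the 7 mice with low smooth muscle scores, and called in all 12 fits at 0.76 to 0.81. The step from 3 to 9 months was 0.34 without those mice and was not called. The step from 15 to 24 months was 0.38, 0.10 and 0.40 in the 3 batches and was lost without 24-month mouse 1, 5 or 8, at 0.24 to 0.27.

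**Figure D3:**
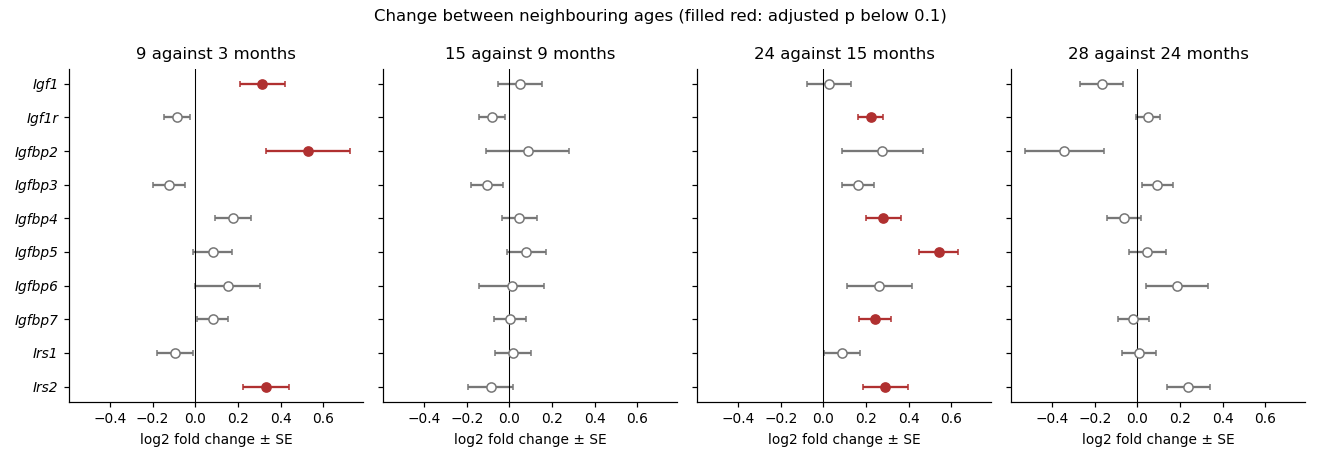
Points give the log2 fold change of each gene between neighbouring ages with its SE (x axis), filled in red where the adjusted p was below 0.1. At 9 against 3 months 3 genes are red, at 24 against 15 months 5, and at 15 against 9 and 28 against 24 months 0.

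Over the 5 ages together, 9 of the 10 genes differed (54.9% of all genes), Irs1 being the exception. With score covariates 7 (smooth muscle and fibroblast), 8 (mesothelium) and 7 (macrophage and endothelium) differed, beside 55.4%, 50.8% and 53.1% of all genes. Igfbp6 was lost with each of them (adjusted p = 0.182, 0.905 and 0.226), Igfbp3 with the first (adjusted p = 0.169) and Igfbp7 with the last (adjusted p = 0.153). A straight line in age was called for 8 genes, all rising (53.3% of all genes, 25.8% as rising), with slopes from 0.03 log2 units per month for Igfbp5 to 0.01 for Igf1r. Igf1, Igf1r and Igfbp3 departed from a straight line (16.2% of all genes), with adjusted p = 0.0519, 0.0137 and 0.0415. Igf1 was lower at 3 months than at the 3 middle ages, and Igf1r and Igfbp3 had their lowest medians at 15 months. For Igfbp5, Igfbp4, Igfbp7, Igfbp6 and Irs2 a departure did not pass (adjusted p = 0.149, 0.49, 0.607, 0.834 and 0.23), so a step after 15 months was not distinguished from a steady rise. Without the 7 mice with low smooth muscle scores the line was called for 5 genes, Igfbp4, Igfbp5, Igfbp6, Igfbp7 and Irs2 (47.9% of all genes), and the departure of Igf1 did not pass, whereas those of Igf1r, Igfbp3 and Igfbp2 did. With smooth muscle and fibroblast scores as covariates the departure of Igfbp3 did not pass (adjusted p = 0.171, and from 0.0212 to 0.171 over 11 fits).

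Levels of the 10 genes also varied between mice of the same age, and several varied together. After the means of age and batch were removed, 26 of the 45 pairs of genes were correlated at an adjusted permutation p below 0.1, all positively, with a median Pearson's r of 0.30 over the 45. All pairs come from the same 83 libraries. The share of correlated pairs among other genes of the tissue was not computed, so the count is not read as a trait of these 10 genes. Igfbp4 and Igfbp7 were the closest pair, with r = 0.86 and Spearman's rho = 0.85 (permutation p = 1e-05 for each, the smallest the permutations can give, adjusted p = 5.6e-05 and 5e-05). It was 0.83 without the 2 mice farthest from the median, 0.85 without the 7 mice with low smooth muscle scores, and 0.83, 0.92 and 0.88 within the 3 batches. Igf1 went with Igfbp4 (r = 0.59, rho = 0.61, adjusted permutation p = 5.6e-05 and 5e-05, 0.57 without 2 mice, 0.49 to 0.70 within batches), and Igfbp5 with Igfbp6 (r = 0.57, rho = 0.58, adjusted permutation p = 5.6e-05 and 5e-05, 0.55 without 2 mice, 0.55 to 0.61 within batches). Between Irs2 and the 6 binding proteins r lay between -0.07 and 0.07, and between Igf1 and Igf1r it was 0.03. Irs2 did go with Irs1 (r = 0.30, rho = 0.26, adjusted permutation p = 0.0197 and 0.0473). That r was 0.35 without the 7 mice and 0.08 to 0.50 within batches. Of the 26 correlated pairs, 25 kept their sign without the 7 mice and 25 had it in all 3 batches, the exception in both being Igf1r with Igfbp2.

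The binding proteins shared several cell type scores, while the score with the highest r was not the same for all of them. No difference between correlations was tested. Scores for 13 cell types were correlated with the 10 genes, a set of 130 relations added after values had been seen, of which 73 passed an adjusted permutation p below 0.1, 72 of them positive. Igfbp2 followed the smooth muscle score, with r = 0.87 and rho = 0.79 (adjusted permutation p = 5.2e-05 and 5.65e-05, 0.83 without 2 mice). Without the 7 mice with low smooth muscle scores r was 0.68 over the other 76, and within the batches it was 0.78, 0.81 and 0.97. Igfbp2 also went with the scores of enteric glia (r = 0.78) and enteric neurons (r = 0.71), which were 0.51 and 0.46 without the 7 mice. Igfbp6 followed the mesothelium score, with r = 0.78 and rho = 0.80 (adjusted permutation p = 5.2e-05 and 5.65e-05, 0.77 without 2 mice, 0.75 to 0.81 within batches), and also those of adipocytes and fibroblasts at r = 0.70 each.

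Igfbp4 had r = 0.78 with the fibroblast score and 0.76 with the macrophage score, and Igfbp7 had 0.74 and 0.73. Igfbp5 had r = 0.67 with fibroblasts, 0.66 with macrophages and 0.65 with endothelium. The fibroblast score also had r = 0.52 with Igfbp2, and the smooth muscle score 0.53 with Igfbp4, 0.46 with Igfbp6 and 0.59 with Igfbp7. Igfbp3 had its highest r with endothelium, at 0.40. Igf1 had its highest r with fibroblasts, at 0.64. Irs2 was correlated with no score by Pearson's r, which lay between -0.15 and 0.04 (lowest adjusted permutation p = 0.25), though by Spearman's rho it passed with the goblet cell score (rho = -0.24, adjusted permutation p = 0.059). A score is a mean over few markers and follows their RNA, not a number of cells.

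**Figure D4:**
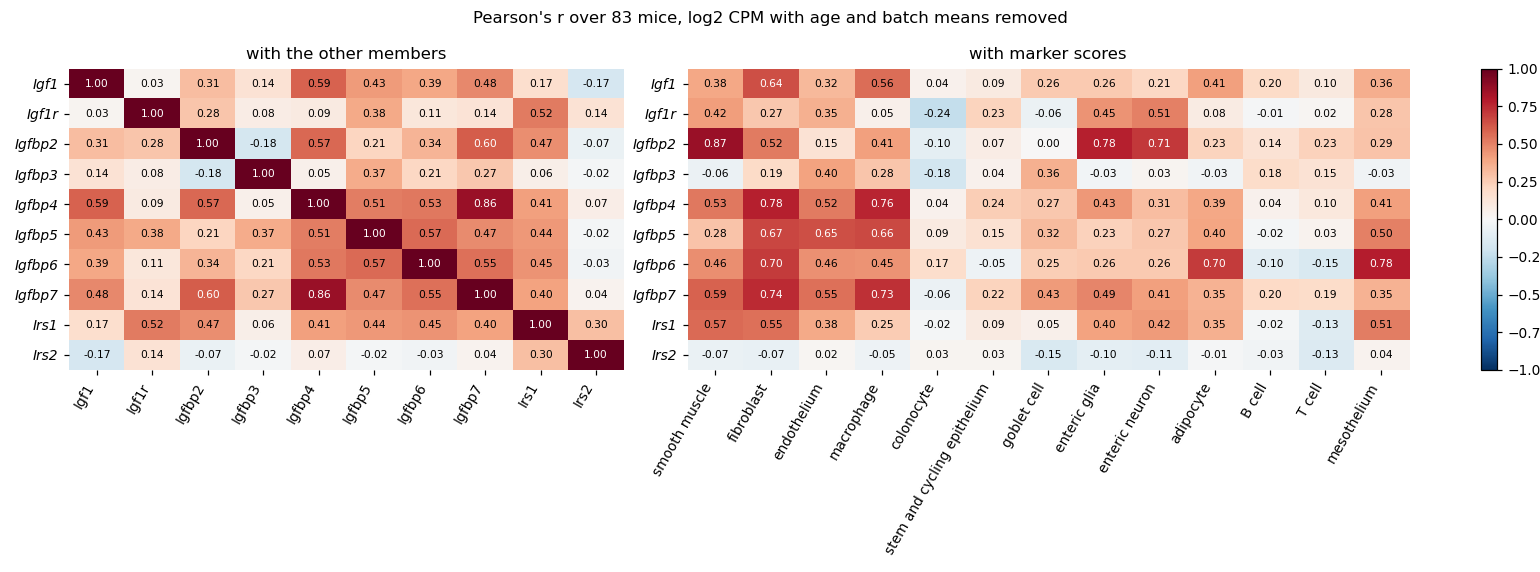
Colours and numbers give Pearson's r over 83 mice of log2 CPM with the means of age and batch removed, on the left between the 10 genes and on the right between each gene and 13 marker scores. The row of Irs2 is near 0 across the scores, while Igfbp2 has its highest value, 0.87, with smooth muscle and Igfbp6 its highest, 0.78, with mesothelium.

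Single markers of these cell types differed between ages, while the scores were not tested against age. At 28 against 3 months, with 49.4% of all genes called, 5 of 6 macrophage markers, 3 of 5 endothelium markers, 3 of 6 fibroblast markers and 2 of 5 adipocyte markers were higher, and 5 of 5 goblet cell, 3 of 4 B cell, 3 of 5 stem and cycling epithelium, 2 of 4 enteric neuron and 1 of 5 colonocyte markers were lower. Of the smooth muscle, enteric glia and T cell markers 0 of 6, 0 of 4 and 0 of 3 were called by edgeR and 0, 1 and 0 by DESeq2, and none had an unadjusted edgeR p below 0.05. At 24 against 15 months, with 13.5% of all genes called and 6.28% as higher, 4 of 6 macrophage, 3 of 5 endothelium, 2 of 6 fibroblast, 1 of 4 enteric glia and 1 of 4 mesothelium markers were higher, and 2 of 5 goblet cell and 1 of 5 colonocyte markers were lower. The macrophage score ranged from 4.33 to 5.02 at 15 months and from 4.47 to 5.31 at 24 months, and the endothelium score from 3.39 to 4.31 and from 3.87 to 4.29. With both scores as covariates the log2 fold change from 15 to 24 months was 0.11 for Igfbp4 and 0.08 for Igfbp7, and neither passed, nor did Irs2 at 0.29, whereas Igfbp5 at 0.31 and Igf1r at 0.15 did. From 3 to 28 months Igfbp4, Igfbp5, Igfbp6, Igfbp7 and Irs2 stayed called with these covariates, at 0.26, 0.51, 0.33, 0.13 and 0.78, and Igf1 at 0.07 and Igfbp2 at 0.37 were not. These covariates were added after the values were seen, and the part of macrophages and endothelium in the results was not tested.

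Among 14961 tested genes with a mean of at least 1 CPM, the 3 whose levels went most closely with each member over the 83 mice, with age and batch means removed, were as follows, and they are given as a description without a test. For Igfbp4 they were the matrix genes Pcolce (r = 0.92), Sparc (0.88) and Htra1 (0.86), the last of which encodes a protease that cuts binding proteins. Igfbp7 was closest to Htra1 (r = 0.88), Crtap (0.88) and Igfbp4 (0.86). Igfbp5 was closest to the receptor gene Axl (r = 0.82), to Col6a3 (0.80) and to Pdgfra (0.79), a receptor of fibroblasts and one of the markers of their score. For Igfbp6 the genes were Gsn (r = 0.82), Clec3b (0.81) and Pi16 (0.79), and for Igfbp2 they were Pcp4l1 (0.89) and the smooth muscle genes Tagln (0.89) and Actg2 (0.88). Igfbp3 had lower values, with the endothelial gene Pecam1 (r = 0.57), the pericyte receptor Pdgfrb (0.55) and Il34 (0.55).

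Igf1 was closest to Me1 (r = 0.79), Tnfrsf11b (0.76) and Pros1 (0.72). Igf1r was closest to Prrc2b (r = 0.77), Pkd1 (0.77) and Syne1 (0.76), and Irs1 to Gli3 (0.70), Rnf144b (0.70) and Bmp1 (0.69). Irs2 was closest to the transcription factor genes Fosl2 (r = 0.70) and Klf6 (0.58) and to Zc3h4 (0.66). None of the genes closest to Irs2 was among those closest to a binding protein, which says little with 3 genes of 14961 listed per member. The genes listed for Igf1, Igf1r and Irs1 were not among those closest to a binding protein either.

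Other genes of the IGF system were taken from a fixed list of 23 genes, of which 19 were tested. At 28 against 3 months 6 were higher and 3 lower, with a median log2 fold change of 0.05, beside 49.4% of all genes called. The second ligand, Igf2, which is expressed mainly before birth, was barely detected, at 0.0974 to 0.552 CPM at 3 months and 0.139 to 0.553 at 28 months. It was higher at 28 months by 0.54 ± 0.19 (SE, adjusted p = 0.0167). Igfals, the subunit that holds IGF and IGFBP3 in serum complexes, was also low and rose by 0.40 ± 0.11 (adjusted p = 0.00147). Pappa, the protease that cuts IGFBP4 and IGFBP5, went from a median of 6.67 to 7.58 CPM, a log2 fold change of 0.29 ± 0.13 (adjusted p = 0.0605). Its relative Pappa2 was lower, with a log2 fold change of -0.33 ± 0.11 (adjusted p = 0.0105), as were the orphan receptor Insrr, at -0.33 ± 0.12 (adjusted p = 0.0165), and the adapter Shc1, at -0.05 ± 0.02 (adjusted p = 0.0702).

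Of the receptors of the related ligands, the insulin receptor Insr was higher at 28 months by 0.13 ± 0.05 (SE, adjusted p = 0.0174), from a median of 126 to 134 CPM. Igf2r, which takes up IGF2 for breakdown, was at a median of 169 CPM at 3 months and 154 at 28 months, with a log2 fold change of -0.03 ± 0.08 that did not pass (adjusted p = 0.818). Per length, Igf2r (median 54.8 TPM) and Insr (28.6 TPM) were both more abundant than Igf1r.

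Of 6 genes that carry or restrain the growth hormone signal, 2 were higher and 1 lower at 28 months, again beside 49.4% of all genes. Socs2, a suppressor that growth hormone induces, ranged from 41.5 to 52.9 CPM at 3 months and from 48.8 to 78.1 at 28 months, a log2 fold change of 0.26 ± 0.05 (SE, adjusted p = 1.31e-05). The transcription factor Stat5a was higher by 0.12 ± 0.05 (adjusted p = 0.0338). Cish, another suppressor that STAT5 induces, was lower, with a log2 fold change of -0.21 ± 0.07 (adjusted p = 0.0124). Ghr, the growth hormone receptor, had a log2 fold change of 0.11 and did not pass.

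Downstream, 5 of 27 genes of the PI3K, Akt, mTOR and FoxO branches were higher and 3 lower at 28 months, with a median log2 fold change of -0.01, the same as over all genes, of which 49.4% were called. Rictor, a scaffold of one of the mTOR complexes, went up by 0.22 ± 0.05 (SE, adjusted p = 0.000415) and Tsc1, a brake on mTOR, by 0.21 ± 0.05 (adjusted p = 0.000567). Lower were the transcription factor gene Foxo6, with a log2 fold change of -0.39 ± 0.14 (adjusted p = 0.0246), the kinase gene Pdpk1 at -0.16 ± 0.05 (adjusted p = 0.00603) and the phosphatase gene Inppl1 at -0.09 ± 0.04 (adjusted p = 0.0693). The called changes in these branches were between -0.39 and 0.22, smaller in size than those of Igfbp5 and Irs2.

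**Figure D5:**
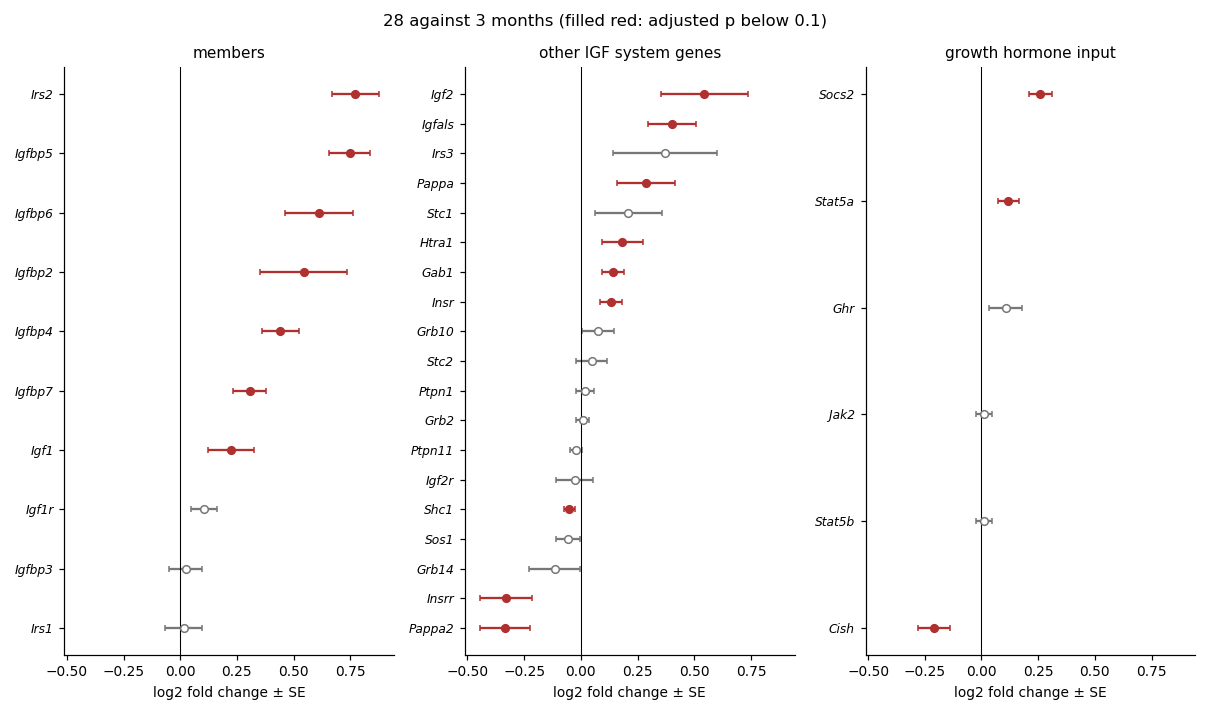
Log2 fold changes of 28 against 3 months with their SE (x axis) are shown for the 10 genes, the other IGF system genes and the growth hormone genes, filled in red where the adjusted p was below 0.1. In the first panel 7 of 10 points are red and to the right of 0, and in the second panel 9 of 19 are red, 6 to the right and 3 to the left.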

How the data were processed

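Colon RNA was sequenced from 83 mice, 1 library per mouse, with a stranded polyA kit. According to the methods and the submitters' processing notes, the authors trimmed reads with cutadapt 2.8, aligned them to GRCm38 with HISAT2 2.1.0, kept uniquely mapped read pairs (SAMtools 1.9) and counted them per Ensembl gene by strand with featureCounts of Subread 2.0.1. The deposited values are whole-number counts per gene and mouse, not normalized, and replicates were not pooled.

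The test was that of edgeR 4.0.16 (R 4.3.3), with filterByExpr by age (18325 genes kept), TMM normalization and 1 quasi-likelihood model with age and library batch over all mice. P-values were Benjamini-Hochberg adjusted over all genes within each comparison, with 0.1 as threshold as in the study's methods. They measure the spread between mice. The SE of a log2 fold change was its absolute value divided by the square root of the test's F statistic. CPM used the normalized library sizes, log2 CPM a prior count of 2, and TPM merged exon lengths of GENCODE vM21 for 37652 genes, so reads of overlapping transcripts of a gene are pooled. Correlations were tested two-sided with 100000 permutations within age and batch. Cell type scores used 62 markers of 13 cell types. Python 3.11.15 was used for levels and figures. The test was checked on simulated counts.

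Alternatives were DESeq2 1.42.0, its size factors, other filters, leaving out the batch term, a block for the replicate number, marker scores as covariates, a threshold of 0.05, fits of 2 ages and leaving out mice. Every member was named, as were Igf2, Igf2r and Insr, at most the 3 largest rises and falls of each other list among called genes and the 3 genes most like each member. A gene that this rule also names is not reported here. Ghr, Muc2 and Car1 were named after their values were seen. The members and lists were chosen with earlier results of these data known.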

Additional observations from a re-analysis of the deposited data

How the results depend on the processing

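Most counts of called members, which take both directions together, were within 1.5 times the reported count in every setting. Those that moved further were as follows. Without the 7 mice with low smooth muscle scores, 0 members were called at 9 against 3 months (2.28% of all genes called in that fit) and 1 at 15 against 3 months (8.27%). At 28 against 24 months 1 was called (Igfbp2, 13.2%), and on a straight line 5 (47.9%). With the mesothelium score as a covariate 3 were called at 28 against 9 months (37.2% of all genes), Igfbp5 and Irs2 as higher and Igf1 as lower. On a straight line 5 were called with it (46.3%). With macrophage and endothelium scores 1 was called at 24 against 9 months (10.1% of all genes), 2 at 24 against 15 months (10.9%) and 5 on a straight line (50.5%). With smooth muscle and fibroblast scores 3 were called at 24 against 15 months (14.4%). A threshold of 0.05 left 0 at 9 against 3 months and 2 at 15 against 3 months, and the shares of all genes at this threshold were not computed. Fits of only the 2 ages compared gave 2 at 15 against 3 months (6.78% of all genes) and 1 at 28 against 24 months (11.5%). Other counts include a member called as lower, so that fewer of the reported genes were kept. At 28 against 15 months Igf1 was so called beside Igf1r, Igfbp3, Igfbp5 and Irs2, with mesothelium and with macrophage and endothelium scores. At 28 against 3 months Irs1 was beside Igfbp4, Igfbp5, Igfbp7 and Irs2 with the mesothelium score. At 28 against 9 months Igf1 was beside Igf1r, Igfbp5 and Irs2 with macrophage and endothelium scores. The cause of these shifts was not tested. Leaving out each mouse aged 3 or 28 months in turn gave 6 to 8 members at 28 against 3 months over 34 fits. Leaving out each mouse aged 24 months gave 4 to 6 at 24 against 15 months over 17, and the mice aged 15 months were not left out.

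Among called results, the slope of Igf1 on a straight line changed sign, to -0.000835 log2 units per month with smooth muscle and fibroblast scores (not called there). The other sign changes given here are of members that were not called. At 28 against 3 months the log2 fold change of Igfbp3 was -0.0145 with smooth muscle and fibroblast scores, -0.0767 with macrophage and endothelium scores and -0.0174 to 0.0622 with 1 mouse left out. That of Irs1 was -0.121 with smooth muscle and fibroblast scores, -0.0773 without the 7 mice, -0.163 with the mesothelium score (then called), -0.0812 with macrophage and endothelium scores and -0.0148 to 0.0465 with 1 mouse left out. At 24 against 15 months Igf1 was at -0.157, -0.0597 and -0.107 with the smooth muscle and fibroblast, mesothelium, and macrophage and endothelium scores, and at -0.0136 to 0.0657 with 1 mouse left out. With the first and the last of these score sets, Igfbp6 was at -0.0328 and -0.0187 and Irs1 at -0.0158 and -0.0292.

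Igfbp3 was called at 24 against 15 months without 24-month mouse 6, at 0.19. The replicate numbers did not pair mice. Same-numbered mice of different ages had a median correlation of 0.0204 over 161 pairs (-0.00352 over other pairs), and 3 of 83 mice correlated best with their own number. With the number as a replicate block, 2 members were called at 9 against 3 months (8.22% of all genes) and 7 at 28 against 9 months (36.9%). In the other comparisons as many were called as without the block.

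The lowest count of any member in a mouse was 82 (Igfbp2), and the coefficient of variation of that gene over all mice was 35.9%. The settings that leave out the 7 mice or add mesothelium, or macrophage and endothelium, scores were chosen after seeing the data.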

Other observations

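Of the genes of the IGF system outside the 10, Ins2, Igfbp1 and Irs4 were counted in the table but removed by the filter on low counts. Each had a median of 0 TPM over the 83 mice, and their highest values in a mouse were 0.0895, 0.0707 and 0.0577 TPM. Ins2 encodes an insulin, Igfbp1 a binding protein made mainly by the liver, and Irs4 a docking protein. Igf2, which passed the filter, had a median of 0.14 TPM.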
